A study of Homo sapiens with 7 samples.

Results

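The genes that encode the co-repressors and co-activators of AML1-ETO were examined as binding targets in Kasumi-1 cells. Members were 9 genes chosen by name, 6 of co-repressors (NCOR1, TBL1XR1, HDAC3, SIN3A, HDAC1 and HDAC2) and 3 of co-activators (EP300, CREBBP and KAT2B), out of 20136 protein-coding genes. Kasumi-1 is an established myeloblast cell line, grown from peripheral blood, that carries the t(8;21) translocation and makes the AML1-ETO fusion protein. ChIP-seq, in which cross-linked chromatin is precipitated with an antibody and its DNA sequenced, was performed in cells in log phase, with no treatment named in the labels, so all groups share 1 line and 1 condition. The groups are the targets of 5 antibodies, namely AML1 (with an antibody to the part of AML1 that the fusion lacks), AML1-ETO (with an antibody to ETO), N-CoR, p300 and H3K4me3, the histone modification found at active transcription starts. Each antibody has 1 deposited list of peak summits from pooled replicates, with 11692, 18087, 10004, 11020 and 19632 peaks in the same order. The lists give no height, read count or p-value, so the depth behind a peak is unknown, no spread between replicates can be given, and the counts below are descriptions without a test. A peak's number below is its place in the list, and what sets that order is unknown, so it is no measure of strength. H3K4me3 summits lay within 1000 bp of a start in 7 of 7 blood genes checked as a test of the cell label (PTPRC, CD34, KIT, MPO, SPI1, CD33 and MYB) and in 1 of 7 genes of other cells, EPCAM. The share over all protein-coding genes was 62.4%, and the check does not cover the labels of the 4 protein lists.

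N-CoR, the product of NCOR1, is a scaffold that is brought to DNA by transcription factors and carries HDAC3 and TBL1XR1 in a stable complex. SIN3A is the scaffold of a separate co-repressor complex that holds HDAC1 and HDAC2, the histone deacetylases that remove acetyl groups and accompany gene silencing. The co-activators p300 (EP300) and CBP (CREBBP) are closely related acetyltransferases, and KAT2B, also called PCAF, is an acetyltransferase of another family that binds them. The ETO part of the fusion protein is known to contact N-CoR and deacetylases, and AML1 is known to bind p300. The question put to the lists was whether the genes of these proteins are themselves bound, and where.

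All 9 genes had an H3K4me3 summit within 1000 bp of one of their own transcription starts, as did 62.4% of all protein-coding genes. A gene was counted for a list when at least 1 summit fell in the gene body or within 5 kb of it. AML1-ETO summits were counted at 8 of the 9 genes, against a background of 41.4% of all protein-coding genes, and p300 at 8, against 45.6%. N-CoR was counted at 7 genes, against 26.7%, and AML1 at 6, against 34.9%. Only NCOR1 lacked AML1-ETO, and only CREBBP lacked p300. HDAC3, SIN3A, HDAC1, EP300 and KAT2B had summits of all 4 proteins, a pattern found in 15.4% of protein-coding genes, and none of the 9 was without any protein, against 38.5%.

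These counts include summits that belong by position to other genes. HDAC3, SIN3A, HDAC1 and NCOR1 have close neighbours, and 17 of the 48 protein summits lay nearer to the start of another protein-coding gene than to any start of the member. With these left out, an alternative added once the positions were known, AML1-ETO was counted at 6 members, p300 at 7, N-CoR at 4 and AML1 at 3, beside 33.4, 35.6, 21.0 and 27.2% of all protein-coding genes counted in this way (H3K4me3 at 9, beside 58.2%). The genes with all 4 proteins were then 3, HDAC1, EP300 and KAT2B, beside 10.9% of protein-coding genes, while HDAC3 had no protein summit and SIN3A only p300. The members are also long. When protein-coding genes were divided by length into 5 classes of equal size, 4 members fell in the longest class (over 90.4 kb), where AML1, AML1-ETO, N-CoR and p300 were counted at 50.7, 57.8, 39.3 and 46.8% of genes. In the next class, which holds SIN3A, HDAC1, HDAC2 and EP300, the shares were 40.8, 48.2, 30.8 and 53.0%, and in that of HDAC3 they were 30.0, 35.7, 22.3 and 46.0%. Among protein-coding genes with H3K4me3 at a start, AML1-ETO was counted at 53.5%, N-CoR at 36.0%, p300 at 66.2% and AML1 at 46.2%.

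**Figure D1:**
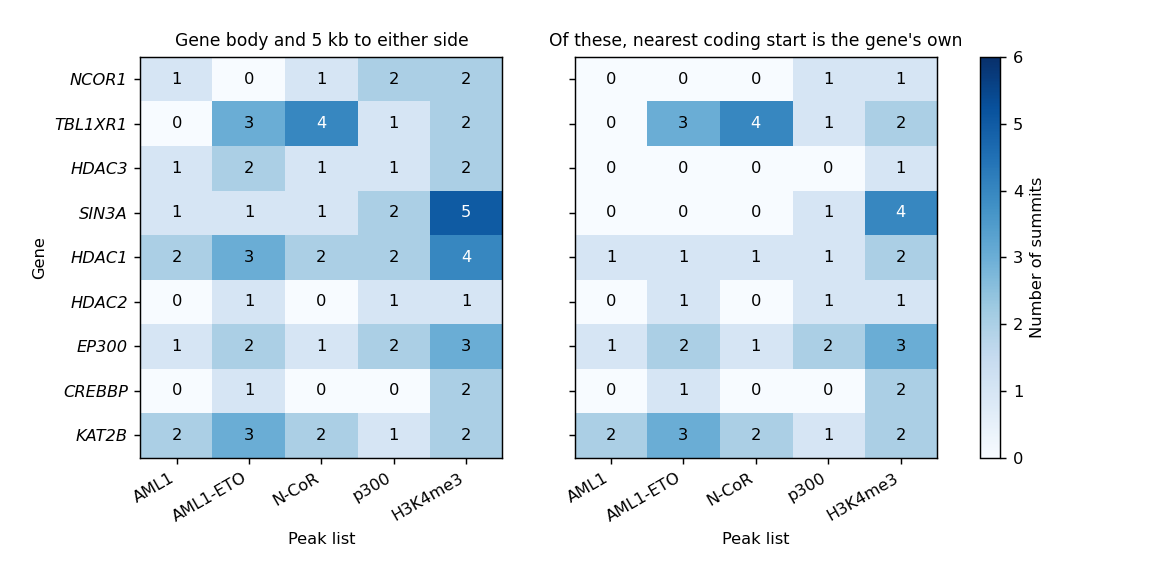
Number of summits per gene (rows) and peak list (columns), for the gene body with 5 kb to either side (left) and for those summits whose nearest protein-coding start is the gene's own (right). HDAC3 has 5 protein summits on the left and 0 on the right, whereas TBL1XR1 keeps all 8.

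**Figure D2:**
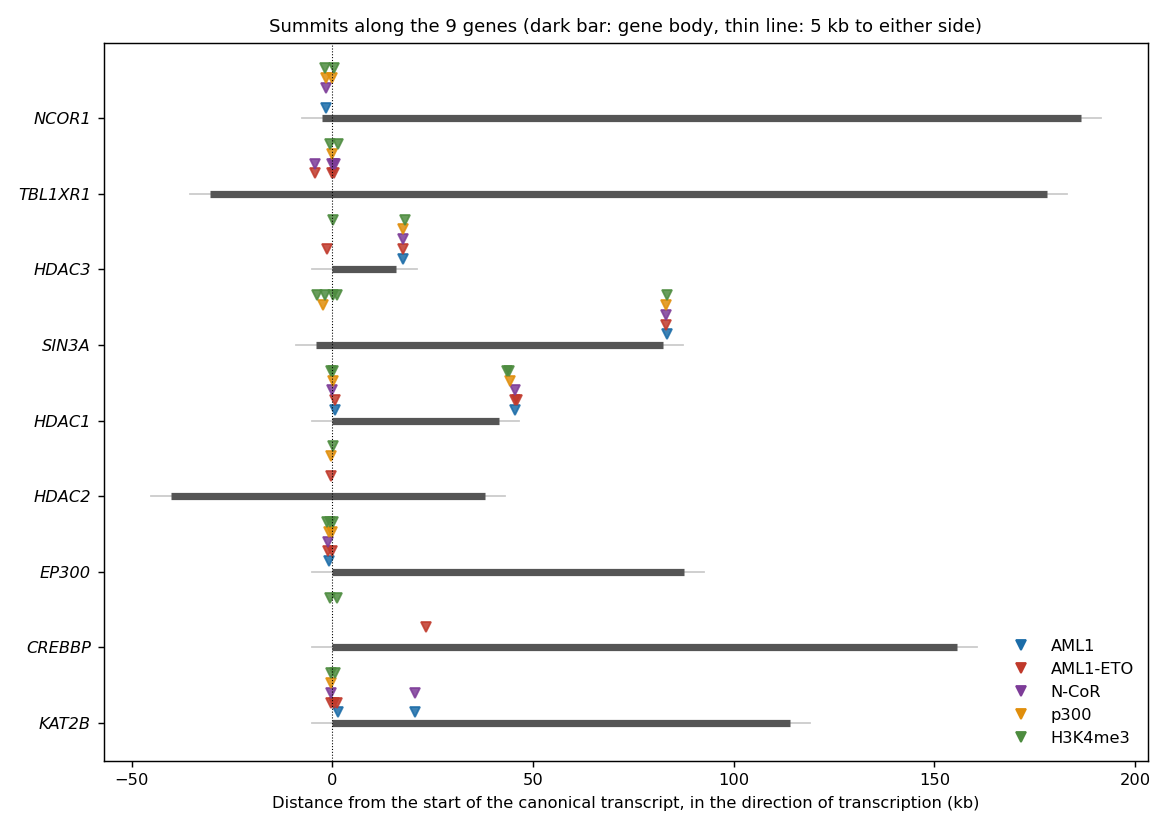
Position of each summit (triangles, coloured by list) along the 9 genes, as distance from the start of the canonical transcript in kb along the direction of transcription. Dark bars are gene bodies, and thin lines the 5 kb added to either side. Most summits stand near the start or, for HDAC3, SIN3A and HDAC1, beyond the end of the gene.

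NCOR1 itself spans 15932379 to 16121499 on the reverse strand of chromosome 17 (GRCh37, as for every coordinate here). It was the 1 member without AML1-ETO in the gene body or within 5 kb. With summits nearer to other genes left out, HDAC3 and SIN3A had none either. The nearest AML1-ETO summit lay 69649 bp outside NCOR1, although this gene is 189 kb long and 57.8% of the genes in its length class had at least 1. The lists placed 1 AML1, 1 N-CoR and 2 p300 summits there. A p300 summit, number 2347 of its list, stood 40 bp upstream of the canonical start and 20 bp from the nearest start of the gene, with an H3K4me3 summit 284 bp into the canonical transcript. The N-CoR summit (number 7062) shared its window with AML1 (38 bp away) and with the other p300 summit (33 bp away), 1581 bp upstream of the canonical NCOR1 start. This position lies in an intron of longer NCOR1 transcripts, but its nearest protein-coding start, 76 bp away, is that of PIGL, the neighbour that encodes an enzyme of GPI anchor synthesis. N-CoR was therefore listed at the shared 5′ region of NCOR1 and PIGL and nowhere else in the gene. The reference window of this N-CoR peak is shown because it is the single site of N-CoR at its own gene, and it holds none of the Runx (TGTGGT), PU.1 (GAGGAA) or ETS (AGGAAG) letters on either strand. In this and the following sequences, read from the forward strand, capitals mark these letters where they occur.
NCOR1, N-CoR peak, chr17:16120379-16120478: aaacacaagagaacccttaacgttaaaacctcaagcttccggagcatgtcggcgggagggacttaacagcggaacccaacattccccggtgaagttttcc

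TBL1XR1, which encodes a WD-repeat subunit of the N-CoR complex, carried the most N-CoR summits of the 9 genes. The gene spans 176737128 to 176945788 on the reverse strand of chromosome 3, and it had 3 AML1-ETO, 4 N-CoR and 1 p300 summits and no AML1. As many N-CoR summits or more were found at 1.87% of all protein-coding genes and at 5.79% of those in the same length class. All 8 protein summits lay within 1000 bp of an annotated start of the gene, and none was nearer to another gene. At the canonical start, AML1-ETO (number 7745), N-CoR (number 1624) and p300 (number 1148) stood 29, 20 and 14 bp upstream. A second AML1-ETO summit lay 281 bp downstream in exon 1, with an N-CoR summit 1 bp from it, and a further N-CoR summit lay 609 bp downstream in intron 1 without another protein. The remaining AML1-ETO summit, 4360 bp upstream of the canonical start and 25 bp from an alternative start, had N-CoR 38 bp away, and the nearest H3K4me3 summit was 3655 bp away. Of the 9 genes, TBL1XR1 was thus the 1 where every AML1-ETO window was shared with N-CoR while AML1 was absent. The nearest AML1 summit lay 106268 bp outside the gene. The windows of the AML1-ETO sites at the canonical and at the upstream start are shown, since the former holds GAGGAA and the latter TGTGGT on each strand. The former is cut to its 78 bases outside the 5′ UTR.
TBL1XR1, AML1-ETO peak at the canonical start, chr3:176915271-176915348: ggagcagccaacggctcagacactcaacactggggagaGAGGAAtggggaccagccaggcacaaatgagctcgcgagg
TBL1XR1, AML1-ETO peak at the upstream start, chr3:176919580-176919679: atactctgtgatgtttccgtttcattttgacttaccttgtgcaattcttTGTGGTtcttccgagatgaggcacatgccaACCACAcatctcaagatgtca

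HDAC3, the deacetylase of the N-CoR complex, had an H3K4me3 summit but no protein summit at its own start. The gene is the shortest member, 16.0 kb long, from 141000443 to 141016416 on the reverse strand of chromosome 5. Its AML1, N-CoR and p300 summits lay 1725, 1734 and 1690 bp beyond its 3′ end, together with AML1-ETO number 1689, and these 4 summits stood within 46 bp of each other. The nearest protein-coding start was that of DIAPH1, a formin that nucleates actin filaments, 85 bp from the AML1-ETO summit, and an H3K4me3 summit stood 457 bp away. AML1-ETO number 1689 is the lowest-numbered AML1-ETO summit at the 9 genes. The other AML1-ETO summit (number 14153) lay 1409 bp upstream of HDAC3 and 816 bp from the start of RELL2, overlapped no other protein, and held the Runx, PU.1 and ETS letters. The window at the DIAPH1 start is printed because all 4 proteins overlapped each other there, and it holds none of the 3 motifs.
HDAC3, AML1-ETO peak at the DIAPH1 start, chr5:140998657-140998756: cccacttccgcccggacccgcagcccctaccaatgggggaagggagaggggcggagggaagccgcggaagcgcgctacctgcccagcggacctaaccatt

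SIN3A, the scaffold of the other complex, also had most of its protein summits beyond its 3′ end. It spans 75661720 to 75748183 on the reverse strand of chromosome 15. Summits of AML1, AML1-ETO and N-CoR lay 960, 907 and 743 bp beyond its 3′ end, and the N-CoR summit stood 24 bp from the start of MAN2C1, a mannosidase gene. The p300 summit at this place is number 606, the lowest number of p300 at the 9 genes, and it overlapped AML1-ETO (83 bp) and N-CoR (81 bp). The AML1-ETO and N-CoR summits were 164 bp apart, so their windows did not touch. Around the starts of SIN3A itself the lists gave 1 p300 summit (number 2854), 2272 bp upstream of the canonical start and 1064 bp from the nearest start, and 4 H3K4me3 summits. As many H3K4me3 summits as the 5 counted in all were found at 1.51% of protein-coding genes.
SIN3A, AML1-ETO peak at the MAN2C1 start, chr15:75660763-75660862: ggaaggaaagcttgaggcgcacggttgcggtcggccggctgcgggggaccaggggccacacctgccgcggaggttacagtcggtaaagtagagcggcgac

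HDAC1, a catalytic subunit of that complex, had summits at its own start and beyond its end. The gene lies on the forward strand of chromosome 1, from 32757684 to 32799236, and had 2 AML1, 3 AML1-ETO, 2 N-CoR and 2 p300 summits. In intron 1, AML1-ETO (number 16870) and AML1 (number 11510) stood 562 and 605 bp downstream of the start, 43 bp apart. N-CoR lay 139 bp upstream of the start and p300 152 bp downstream, 291 bp from each other, and neither touched AML1-ETO, which was 701 bp from N-CoR and 410 bp from p300. With windows of 100 bp the proteins were therefore all listed within 1000 bp of the HDAC1 start without forming a common site. With 250 bp to either side of each summit their windows join as a chain. At the other end AML1-ETO number 1850 lay downstream of the gene with N-CoR 4 bp and AML1 45 bp from it, 1309 bp from the start of MARCKSL1, and its window holds TGTGGT on the reverse strand. The p300 summit at that end stood 1300 bp away from it and 9 bp from the MARCKSL1 start, and the last AML1-ETO summit (number 8476) overlapped no other protein, 1790 bp from the same start. For AML1-ETO, N-CoR and AML1 the lower-numbered peaks were those beyond the end of HDAC1, whereas for p300 the lower number, 1097, was at the HDAC1 start.
HDAC1, AML1-ETO peak downstream, chr1:32803093-32803192: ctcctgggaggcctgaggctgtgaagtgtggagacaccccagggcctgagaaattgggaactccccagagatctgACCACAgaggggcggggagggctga

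HDAC2, the partner of HDAC1, had fewer sites. At this 78.3 kb gene, from 114254192 to 114332472 on the reverse strand of chromosome 6, AML1-ETO (number 14623) and p300 (number 3426) stood 371 and 350 bp upstream of the canonical start and 21 bp apart. Neither N-CoR nor AML1 was listed, and the nearest summits of these proteins lay 51390 and 713009 bp outside the gene. The window was rich in G and C, 77.0%, and holds none of the motifs searched.
HDAC2, AML1-ETO peak, chr6:114292633-114292732: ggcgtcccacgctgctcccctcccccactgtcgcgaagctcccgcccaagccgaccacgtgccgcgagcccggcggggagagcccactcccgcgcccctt

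**Figure D3:**
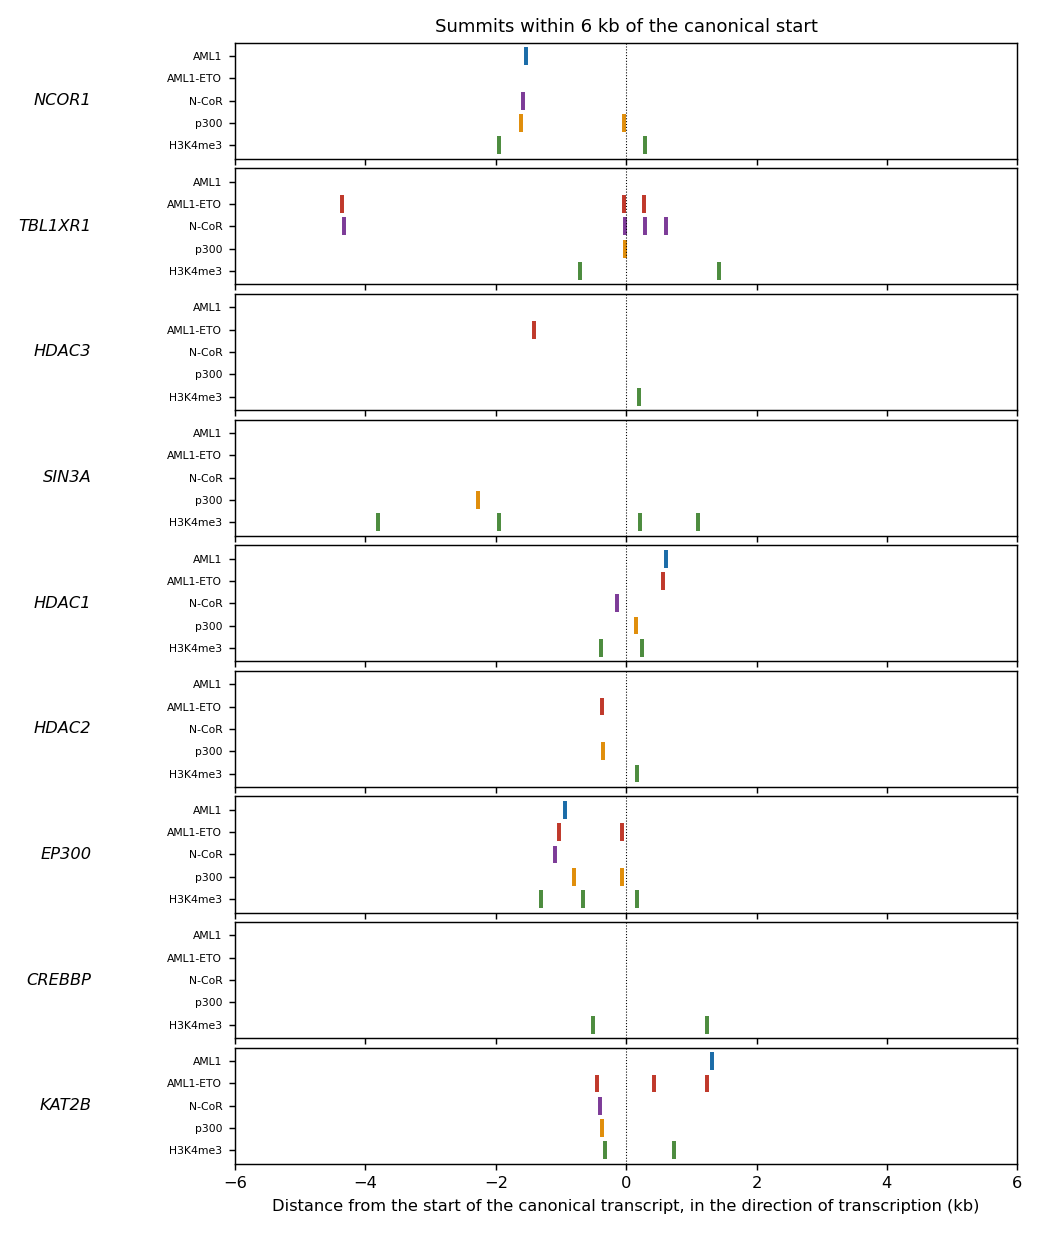
Summits within 6 kb of the canonical start of each gene, with 1 lane per list, against distance in kb along the direction of transcription. AML1-ETO stands with N-CoR and p300 at TBL1XR1 and KAT2B, with p300 at HDAC2, and with p300 and, further upstream, N-CoR at EP300, and the lanes of the 4 proteins are empty at CREBBP.

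EP300, the gene of p300, had summits of p300 and of the other 3 proteins at or just upstream of its own start. It spans 41488596 to 41576081 on the forward strand of chromosome 22. The summits formed 2 groups, and no protein-coding gene had a nearer start. The proximal group consisted of p300 (number 5626) and AML1-ETO (number 16744), 68 and 66 bp upstream of the start and 2 bp from each other, and the nearest AML1 and N-CoR summits were 870 and 1031 bp from this p300 summit. In the distal group AML1, AML1-ETO and N-CoR stood 938, 1034 and 1099 bp upstream, with AML1-ETO 96 bp from AML1 and 65 bp from N-CoR. A second p300 summit (number 2314), 801 bp upstream, was 137 bp from AML1 and shared its window with none of them. At this width AML1-ETO shared its window with p300 next to the start and with N-CoR and AML1 further upstream, but the distal AML1-ETO summit was also only 233 bp from a p300 summit, so that this split is lost with wider windows. The 3 H3K4me3 summits, 1306 and 658 bp upstream and 165 bp downstream, ran through the region. Both AML1-ETO windows are shown for comparison, and neither holds the letters searched.
EP300, AML1-ETO peak with p300, chr22:41488480-41488579: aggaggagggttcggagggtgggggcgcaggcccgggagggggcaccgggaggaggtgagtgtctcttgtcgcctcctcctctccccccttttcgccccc
EP300, AML1-ETO peak with N-CoR, chr22:41487512-41487611: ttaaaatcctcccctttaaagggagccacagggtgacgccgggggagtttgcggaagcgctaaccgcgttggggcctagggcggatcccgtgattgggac

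CREBBP, the gene of the p300 relative CBP, differed from EP300. Over 156 kb, from 3775055 to 3930714 on the reverse strand of chromosome 16, the only protein summit was AML1-ETO number 17099 of 18087. It stood in intron 1, 23219 bp from the canonical start and 7173 bp upstream of the nearest internal start, and shared its window with no other protein. The nearest p300 summit was 292885 bp and the nearest N-CoR summit 136181 bp outside the gene. H3K4me3 was present 510 bp upstream and 1242 bp downstream of the canonical start. Among genes of the same length class 46.8% had a p300 summit. The window holds none of the motifs.
CREBBP, AML1-ETO peak in intron 1, chr16:3907445-3907544: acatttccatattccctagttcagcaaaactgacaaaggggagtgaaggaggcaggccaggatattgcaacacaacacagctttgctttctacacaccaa

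KAT2B had summits of all 4 proteins, and none of the 8 summits was nearer to another gene. The gene spans 20081938 to 20195896 on the forward strand of chromosome 3. AML1-ETO (number 5683), N-CoR and p300 stood 444, 395 and 370 bp upstream of the canonical start, within 74 bp, with an H3K4me3 summit 38 bp from p300. In intron 1 an AML1-ETO summit without another protein lay 425 bp downstream, and AML1-ETO number 4839 lay 1244 bp downstream with AML1 70 bp away. Further along intron 1, AML1 and N-CoR were 5 bp apart at 20670 and 20665 bp from the start. The nearest AML1-ETO summit was 19421 bp from this N-CoR summit, and H3K4me3 was 19924 bp away. It was the 1 place among the 9 genes where AML1 and N-CoR shared a site without AML1-ETO or p300, and both windows hold GAGGAA and AGGAAG.
KAT2B, AML1-ETO peak with N-CoR and p300, chr3:20081444-20081543: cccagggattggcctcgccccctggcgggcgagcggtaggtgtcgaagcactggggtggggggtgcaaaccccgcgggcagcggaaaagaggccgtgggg

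Over the 9 genes, the windows of the 4 proteins formed 25 separate sites when windows that shared at least 1 bp were joined. A single protein was found at 11 sites, 2 proteins at 7, 3 at 5 and all 4 at 2. Sites of p300 alone were the most frequent, with 5, followed by AML1-ETO alone, with 4. The sites of all 4 proteins were those at the DIAPH1 start, where every window overlapped the others, and at the MAN2C1 start, where the windows joined only as a chain. At this width no member carried a site of all 4 at its own start, but the distal p300 summit of EP300 lay 137 bp from AML1 and 233 bp from AML1-ETO, so that wider windows join it to the other 3 proteins. By position, 15 sites had at least 1 summit within 1000 bp of a start of the member, and of the others 4 lay in introns, 1 upstream and 5 downstream, and none lay in an exon away from a start.

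Of the 16 AML1-ETO windows, 7 shared at least 1 bp with N-CoR (43.8%, exact Clopper-Pearson 95% interval 19.8 to 70.1%), 6 with p300 (37.5%, 15.2 to 64.6%) and 6 with AML1 (37.5%, 15.2 to 64.6%). The shares over the whole AML1-ETO list were 38.9, 21.8 and 46.2%, each inside the interval of the members. When each window was widened to 250 bp on either side of its summit, 9 of 16 AML1-ETO windows overlapped p300 (56.2%, 29.9 to 80.2%). The share of the whole list, 29.4%, was then just below the interval. The whole list is not a like background, since 12 of these 16 summits lay within 1000 bp of a protein-coding start, against 28.6% of the list. A share for peaks near starts was not computed. At every narrower width tried, the whole-list share was inside the interval. So was that of p300 windows overlapping AML1-ETO at 250 bp. These intervals cover counting error over peaks only. Where AML1-ETO and N-CoR windows met, the median distance between summits was 9.0 bp, and where AML1-ETO and p300 met it was 33.5 bp. Conversely, 7 of the 12 N-CoR windows (58.3%, 27.7 to 84.8%) and 6 of the 12 p300 windows (50.0%, 21.1 to 78.9%) overlapped AML1-ETO, beside 70.3% of the N-CoR list and 35.8% of the p300 list, each inside the interval.

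The sites stood close to H3K4me3. All 12 p300 summits lay within 1000 bp of an H3K4me3 summit, against 71.7% of the p300 list. So did 11 of the 16 AML1-ETO summits, against 27.4%, and 9 of the 12 N-CoR summits, against 26.9%. For AML1 it was 6 of the 8 summits, against 29.4%. The whole lists also hold peaks away from starts, so they are not a like background. Some of the close summits stood at the starts of neighbours (PIGL, DIAPH1, MAN2C1 and MARCKSL1). A share matched for genes was not computed, and all 9 members had H3K4me3 at a start. Within 1000 bp of their own starts, AML1-ETO was counted at 5 members (23.4% of protein-coding genes), p300 at 6 (37.0%), N-CoR at 3 (13.4%) and AML1 at 2 (18.7%). Among genes with H3K4me3 at a start these backgrounds were 34.6, 58.5, 20.2 and 28.2%.

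The letters TGTGGT, to which Runx proteins bind, were present in 0 of the 8 AML1 windows (interval 0 to 36.9%), 3 of the 16 AML1-ETO windows, 2 of the 12 N-CoR windows and 0 of the 12 p300 windows (interval 0 to 26.5%). In the same order of lists, they were present in 40.6, 31.3, 19.5 and 6.66% of all peaks. Of the members' windows within 1000 bp of a protein-coding start, 0 of 5, 2 of 12, 1 of 9 and 0 of 11 held them, beside 20.0, 16.5, 10.5 and 3.88% of all such peaks. The ETS letters AGGAAG were found in 2 of 8 AML1, 2 of 16 AML1-ETO, 1 of 12 N-CoR and 0 of 12 p300 windows, beside 37.7, 37.5, 46.2 and 25.1% of all peaks. Near a protein-coding start they were found in 0 of 5, 2 of 12, 0 of 9 and 0 of 11 windows, beside 23.7, 25.5, 33.5 and 16.8%. GAGGAA, which overlaps AGGAAG in the run GAGGAAG, was found in 1 AML1 window and in 3 windows of each of AML1-ETO, N-CoR and p300, beside 25.6, 26.0, 30.8 and 17.7% of all peaks. Near a start it was found in 0 of 5, 3 of 12, 2 of 9 and 3 of 11 windows, beside 16.3, 17.8, 21.5 and 12.6%. All letters were searched on both strands within 50 bp of the summit.

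**Figure D4:**
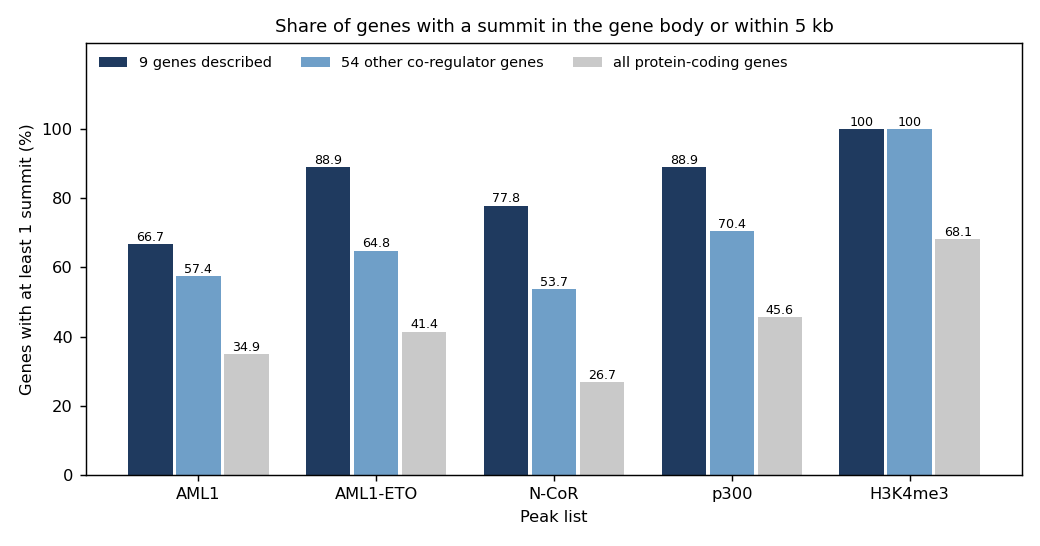
Share of genes with at least 1 summit in the gene body or within 5 kb, in percent, for the 9 genes described, 54 other co-regulator genes and all 20136 protein-coding genes, for each of the 5 lists. In every list the 9 genes stand at or above the other co-regulator genes by this count, and these above all protein-coding genes. Counted at a start, the 9 genes stand below the 54 for AML1 (2 of 9 against 23 of 54). They then stand just below them for p300 (6 of 9 against 37 of 54).

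To set the 9 genes beside their families, 54 further co-regulator genes were counted as a list. AML1-ETO was counted at 35 of them (64.8%), N-CoR at 29 (53.7%), p300 at 38 (70.4%) and AML1 at 31 (57.4%), and all 54 had H3K4me3 at a start. Within 1000 bp of a start, AML1-ETO was counted at 22 of the 54, N-CoR at 17, p300 at 37 and AML1 at 23, beside 5, 3, 6 and 2 of the 9 genes. The median gene of this list was 50.4 kb long, against 87.5 kb for the 9 genes and 27.2 kb for all protein-coding genes. By group, leaving out 4 genes that enter only the totals, AML1-ETO was counted at 4 of 12 genes of the SIN3 complex, 7 of 8 other deacetylases, 13 of 16 genes of the NuRD, CoREST, CtBP and Groucho co-repressors and 8 of 14 acetyltransferases and other co-activators (33.3, 87.5, 81.2 and 57.1%). The background was 41.4% of all protein-coding genes and 53.5% of those with H3K4me3 at a start. The 12 further SIN3 genes lay below both values, the co-activators close to the latter, and the deacetylases and the NuRD to Groucho group above both. These comparisons are not matched for length, and the median gene was 33.1, 48.7, 68.7 and 46.7 kb long in the group order above. AML1-ETO was counted at 35.7% of protein-coding genes of 7.27 to 18.2 kb and at 48.2% of those of 39.5 to 90.4 kb. The SIN3 complex also holds SIN3A, HDAC1 and HDAC2, which are not among these 12. All of them had AML1-ETO, and SIN3A (through a neighbouring start) and HDAC1 had all 4 proteins. In the SIN3 group p300 was counted at 9 of 12 genes (75.0%, beside 45.6% of all protein-coding genes and 66.2% of those with H3K4me3 at a start), and 0 of 12 had all 4 proteins, beside 15.4%. These groups are small and the differences were not tested.

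Co-repressor genes with several AML1-ETO summits included CTBP2 (7, with 3 N-CoR and 3 p300), which encodes a CtBP co-repressor, HDAC5 (5, with 3 N-CoR), HDAC4 (4, with 4 N-CoR) and HDAC7 (3, with 2 N-CoR), the class IIa deacetylases that work with N-CoR, TLE1 (4, with 3 N-CoR and no p300), a Groucho family member, and CHD4 (4, with 1 N-CoR), the NuRD remodeller. Among co-activators the most were found at NCOA2 (3, with 1 N-CoR) and NCOA3 (2, with 1 N-CoR), both steroid receptor co-activators. CITED2, a p300-binding protein, had 1 AML1-ETO and 2 N-CoR summits. TBL1X, the X-linked relative of TBL1XR1, had 3 AML1-ETO and 2 N-CoR summits, as well as 2 AML1 summits, and CORO2A had 1 AML1-ETO summit, which was nearer to the start of another gene. In the SIN3 complex BRMS1 had 3, SIN3B 2 and SAP30 1, and SAP30 also had 1 N-CoR summit. Over all protein-coding genes, at least 7, 5, 4, 3, 2 and 1 AML1-ETO summits were found at 1.06, 2.79, 4.79, 9.04, 18.1 and 41.4%. Within the length class of each gene the shares were 3.97% for CTBP2, 3.15% for HDAC5, 11.2% for HDAC7 and 5.64% for CHD4. They were 12.8% for HDAC4 and TLE1, 20.6% for NCOA2 and TBL1X and 33.5% for NCOA3. For CITED2, CORO2A, BRMS1, SIN3B and SAP30 they were 24.8, 48.2, 4.22, 21.5 and 35.7%. With only summits nearest to the gene's own start, AML1-ETO had 0 summits at CORO2A, 1 at BRMS1 and 2 at HDAC7, and the other counts of AML1-ETO named here stayed as given. With all summits counted, the pattern of every list, shared by HDAC3, SIN3A, HDAC1, EP300 and KAT2B (for the first 2 through neighbouring starts), was found in 18 of the 54 genes and in 14.5% of protein-coding genes, and that of NCOR1, every list but AML1-ETO, in 4 of the 54 (SUDS3, ARID4B, ING2 and MED1) and 1.34% of protein-coding genes.

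**Figure D5:**
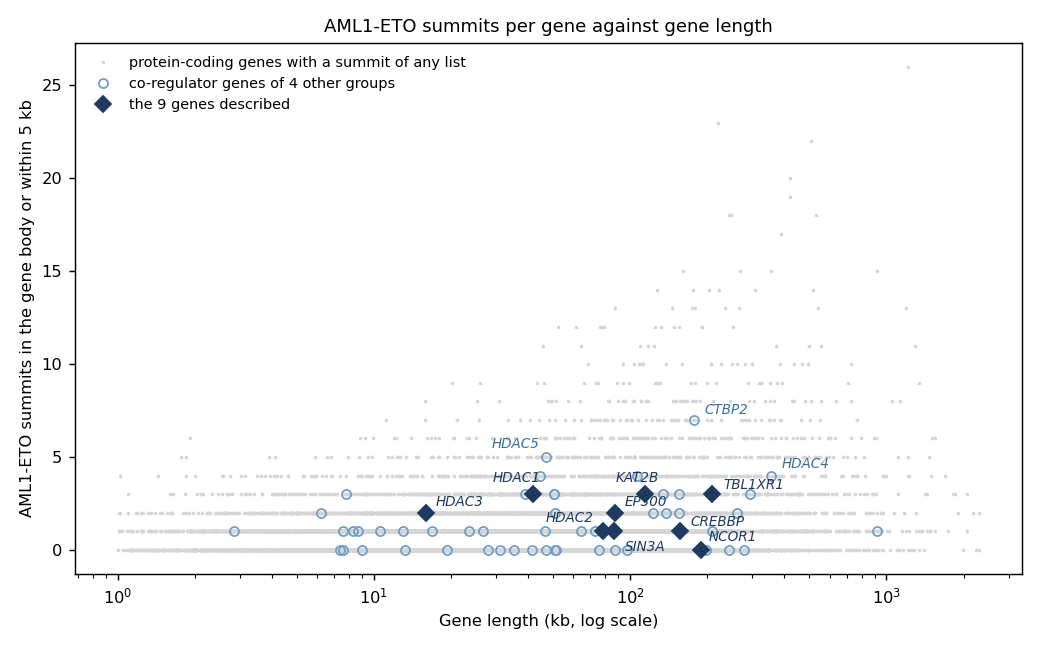
AML1-ETO summits in the gene body or within 5 kb (vertical axis) against gene length in kb (log scale), for the 9 genes described (diamonds), co-regulator genes of the SIN3, deacetylase, NuRD to Groucho and co-activator groups (circles) and protein-coding genes of at least 1 kb with a summit of any list (dots). The 9 genes hold 0 to 3 summits each, and CTBP2, the highest circle, holds 7.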

How the data were processed

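The authors aligned single-end reads to GRCh37, pooled replicates before peak calling (per the submitters' processing notes, CASAVA 1.6, Bowtie 0.12.8 and MACS2 2.0.10.20131216), and deposited 1 list of windows of 100 bp around the summits per antibody. Pooling and the calling threshold set which peaks are listed, and a peak below the threshold is indistinguishable from none. H3K27me3 and input were not analysed here. The summit was taken as the window start plus 50 bp and assigned with GENCODE release 44 on GRCh37 to every gene whose body, extended by 5 kb, held it. Windows overlapped when they shared 1 bp. Distances run to the nearest annotated start, or to the canonical start where stated. Scripts (pysam 0.24.0, samtools 1.23.1 and SciPy 1.17.1 under Python 3.11.15) recovered 200 of 200 genes in simulated data. All 9 members are named, with at most 3 genes per group of the wider list, those with most AML1-ETO summits (ties by N-CoR, then symbol). A result that this rule names is not reported here. Per member the AML1-ETO window shared with most proteins is printed, and 3 windows (NCOR1, and the additional ones of EP300 and TBL1XR1) were added after their values had been seen. Members and lists were chosen with earlier results of these data known.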

Additional observations from a re-analysis of the deposited data

How the results depend on the processing

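No paired analysis was possible because the replicates were pooled into 1 list per antibody and no test was made. Of 117 values computed under other settings 72 stayed within 1.5 times the reported value, and the 45 others follow. The N-CoR and AML1-ETO backgrounds with the gene body alone are among the 72 and are printed only beside their counts. With the gene body alone, AML1, N-CoR, AML1-ETO and p300 were counted at 3, 3, 5 and 5 members, with 4, 6, 8 and 6 summits, H3K4me3 had 14 summits, and the backgrounds of these 4 proteins were 23.0, 18.2, 29.7 and 29.9%. With 50 kb to either side, AML1, p300, AML1-ETO and H3K4me3 had 17, 20, 27 and 36 summits, and the background was 48.7% for N-CoR, 59.8% for AML1 and 66.5% for AML1-ETO. With the first 5000 peaks of each list, AML1, AML1-ETO, N-CoR and H3K4me3 were counted at 2, 3, 3 and 5 members, with 2, 3, 3 and 9 summits, and at a start of 0, 1, 1 and 5. Counting summits nearest to the member's own start, an alternative chosen after seeing the data, left AML1 at 3 members with 4 summits, N-CoR at 4 members and all 4 proteins at 3 members. With 2500 bp from a start, AML1 was at a start of 4 and N-CoR of 5 members, and with 500 bp AML1 was at 0. With 25 bp to either side of a summit, 3 AML1-ETO windows overlapped AML1. With 100 bp, the ETS letters were in 1 p300, 2 N-CoR, 4 AML1-ETO and 5 AML1 windows, and the Runx letters in 2 AML1 windows. With TGTGGT or TGCGGT, 2 AML1 and 5 AML1-ETO windows held Runx letters. The lists give no depth, so a missing summit does not show that a protein is absent, and neighbouring genes share the regions counted.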

Other observations

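Peaks are numbered in the order of each list, and what sets this order is not given in the sources used here. By this order the members' p300 and H3K4me3 summits stood early, at a median of 26.6 and 35.5% of the list, and AML1, AML1-ETO and N-CoR summits late, at 60.4, 61.6 and 76.8%. In the first 10% of its list stood 1 AML1-ETO summit (at the DIAPH1 start beside HDAC3), 2 p300 summits and 4 H3K4me3 summits, and no AML1 or N-CoR summit. The peak names of 3 lists (N-CoR, p300 and H3K4me3) begin with the name of another antibody. Each list was taken as its sample record labels it, and its number of peaks is the one the study's library overview gives for that antibody.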
